A study of Mus musculus with 4 samples.

Results

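The genes for voltage-gated sodium and calcium channel subunits were described across classes of brain nuclei, and compared between Ago2 KO and WT libraries. The members were all genes whose symbol in the deposited feature lists is Scn followed by a number and a or b, begins with Cacna, or is Cacnb1 to Cacnb4 or Cacng1 to Cacng8. This gave 40 of 32286 features: 10 sodium channel α subunits, 4 sodium channel β subunits, 10 calcium channel α1 subunits, 4 α2δ subunits, 4 calcium channel β subunits and 8 γ subunits. None of these 40 genes entered the clustering or the marker lists.

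Voltage-gated sodium channels open on depolarisation and carry the rising phase of the action potential, and voltage-gated calcium channels turn depolarisation into calcium entry for transmitter release, firing patterns and transcription. In each channel a large α or α1 subunit forms the pore, and smaller subunits set its trafficking, surface level and gating. Most γ subunits of the brain are better known as TARPs, which carry AMPA-type glutamate receptors to synapses and shape their currents.

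Hemispheres of C57BL/6 mouse brain, snap-frozen at postnatal day 14, gave the nuclei, which were profiled with 10x Genomics 3′ v3 chemistry. The KO group (2 libraries) was Slc17a6-Cre with Ago2 flox/flox, and the WT group (2 libraries) was Slc17a6-Cre with Ago2 wt/wt, so both groups have the Cre driver. Slc17a6 encodes the vesicular glutamate transporter VGLUT2 and directs Cre to neurons that express it, and Ago2 encodes an Argonaute protein that binds miRNAs. No label says that replicate libraries are from different animals, so p-values measure the spread between libraries, which may be technical.

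KO replicates 1 and 2 held 10845009 and 11439733 UMIs, and WT replicates 1 and 2 held 13107920 and 29317266 UMIs. After filtering, 3218 and 3164 KO nuclei and 3230 and 5819 WT nuclei remained, with a median of 2313 and 2379 UMIs per KO nucleus and 2415 and 3094 per WT nucleus. WT replicate 1 stood apart in mitochondrial UMIs, which made up 0.293% and 0.280% of the kept UMIs in KO and 0.716% and 0.243% in WT. In all, 37 barcodes occurred in more than 1 library. Nuclei fell into 29 clusters, and 17 classes had at least 20 nuclei in every library: 8 named neuron classes, 8 named non-neuronal classes and 1 large unnamed neuron cluster of 1609 nuclei. The names rest on markers and mean "like" that cell type. The unnamed cluster was led by Glra1, the glycine receptor α1 subunit, and made up 12.7% and 13.6% of KO nuclei and 8.14% and 8.73% of WT nuclei. The series text speaks of cortical cells, yet mature granule neurons of the cerebellum made up 17.1% and 17.1% of KO nuclei and 15.4% and 22.2% of WT nuclei. Ago2 itself did not check the labels: in cortical excitatory neurons it stood at 105 and 102 CPM in KO and 70.4 and 78.7 CPM in WT, and across 16 classes it was higher in KO in 8 and lower in 8, with 0 past the threshold by edgeR (1 at an unadjusted p under 0.05). Slc17a6, which drives the Cre, was highest in the Purkinje class, at 132 and 199 CPM in KO and 112 and 98.3 CPM in WT. In the unnamed cluster it stood at 94.3 and 75.7 CPM in KO and 63.1 and 59.8 CPM in WT. Immature granule neurons had 67.9 and 57.6 CPM in KO and 76.5 and 54.9 CPM in WT. Cortical excitatory neurons had 19.8 and 18.01 CPM in KO and 16.3 and 9.90 CPM in WT. Whether the counted 3′ reads lie outside the deleted part was not stated, and the Cre sequence listed among the features had 0 UMIs in all 4 libraries. The Purkinje class was named from 5 of 8 markers, and 4 Slc17a6 neuron markers were also detected. The name went to 126 nuclei in a finer clustering, 106 with doublets kept and 107 with channel genes in the clustering. It went to 15 in a coarser one and to 16 without a mitochondrial maximum, where 94 others were named Slc17a6 neuron. Those 94 numbered 16 and 18 in KO and 22 and 38 in WT. The Purkinje class of 108 nuclei numbered 21 and 20 in KO and 24 and 43 in WT. Whether these are the same nuclei, and whether the class mixes cell types, was not tested. Values for Purkinje neurons may therefore be mostly those of other neurons.

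Levels are in CPM, the UMIs of a gene in 1000000 UMIs of a class, in each library. They are compared between classes and between libraries but not between genes, since the 40 genes span 10.5 to 817 kb and long genes can gather more nuclear RNA reads. No test was made between classes, because the classes were built from the same nuclei. In all, 25 members averaged at least 50 CPM in at least 1 class. The highest class was a neuron class for 21 of those 25 and for 30 of all 40. For 14 of the 25, the 4 libraries in the highest class all lay above the 4 libraries in the next class.

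The 5 well-measured sodium channel pore subunits peaked in 4 different neuron classes. Scn2a, which serves the axon initial segment early in development and unmyelinated axons, was highest in mature granule neurons, at 712 and 682 CPM in KO and 695 and 704 CPM in WT. The next class, cortical excitatory neurons, had 337 to 409 CPM, so the 2 ranges did not meet. Scn3a, the subunit best known from the embryonic and newborn brain, was highest in immature GABAergic neurons, at 308 and 241 CPM in KO and 236 and 242 CPM in WT. It was low in the granule lineage, with 37.2 to 66.1 CPM in immature and 22.7 to 52.5 CPM in mature granule neurons. Scn8a, the main subunit of mature axon initial segments and nodes of Ranvier, was highest in immature granule neurons (461 to 556 CPM), and mature granule neurons (434 to 524 CPM) overlapped them. Scn1a, a subunit prominent in fast-spiking interneurons and mutated in Dravet syndrome in humans, was highest in the unnamed neuron cluster (313 to 363 CPM), with Purkinje neurons (234 to 380.1 CPM) overlapping. Scn9a, best known from nociceptive sensory neurons, was also highest in the unnamed cluster, at 129.6 and 174 CPM in KO and 153 and 164 CPM in WT. Cortical excitatory neurons had 15.03 to 28.0 CPM and mature granule neurons 10.5 to 17.0 CPM of Scn9a.

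The ratio of Scn8a to Scn3a UMIs sets a subunit of mature axons against an early one, and between classes it ranged over more than an order of magnitude. It also depends on the lengths of both genes, which are the same in every class, so it is read between classes and libraries alone. Pooled over the 4 libraries it was 11.5 in mature granule neurons, 9.70 in immature granule neurons, 3.73 in cortical excitatory neurons and 0.895 in immature GABAergic neurons. In OPCs, the oligodendrocyte precursor cells, it was 1.45. The 4 libraries of immature GABAergic neurons all lay between 0.854 and 0.915, below the libraries of every other neuron class.

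**Figure D1:**
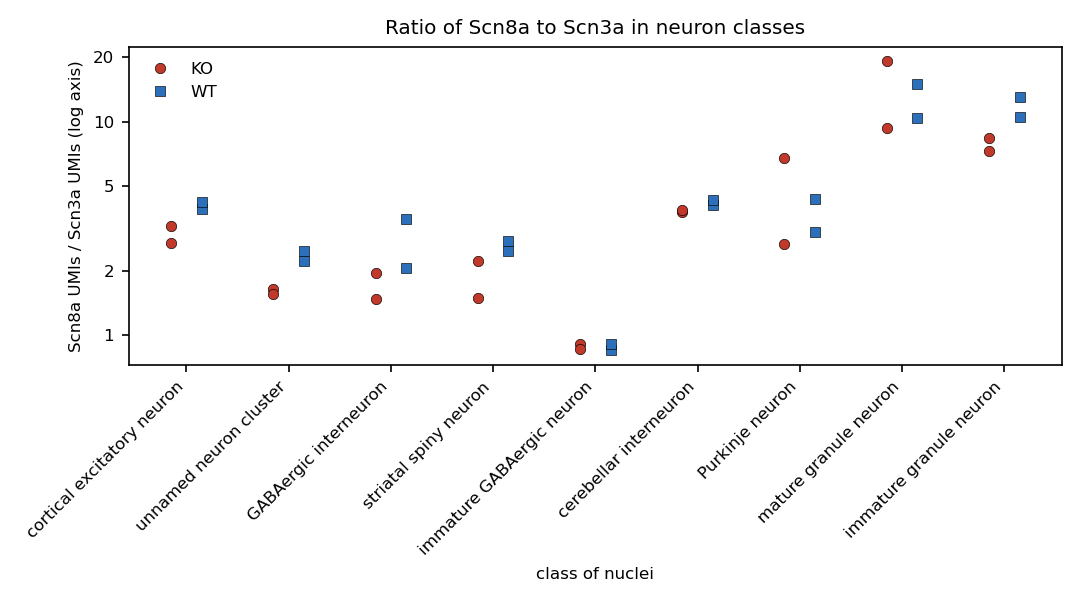
Ratio of Scn8a UMIs to Scn3a UMIs (vertical log axis) in 9 neuron classes (horizontal axis); each point is 1 library, KO as circles and WT as squares. Immature GABAergic neurons sit between 0.854 and 0.915, and mature granule neurons between 9.35 and 19.1.

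Among the sodium channel β subunits, which tether the pore to adhesion molecules and tune its gating, Scn4b was far higher in 1 class than elsewhere. Scn4b, whose tail can block open channels and so produce resurgent current, stood at 65.6 and 32.9 CPM in KO and 48.8 and 52.3 CPM in WT in striatal spiny neurons. The next class, the unnamed neuron cluster, had 3.03 to 7.75 CPM. Its neighbour Scn2b was spread more widely: it had 22.5 to 47.0 CPM in mature granule neurons, 29.4 to 41.9 CPM in spiny neurons and 21.4 to 36.6 CPM in the unnamed cluster, and these 3 ranges overlapped. Scn3b was highest in spiny neurons (44.5 to 78.3 CPM), with immature GABAergic neurons (36.4 to 59.7 CPM) overlapping.

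Scn2b (chr9:45117782-45130070, + strand, GRCm38) and Scn4b (chr9:45138395-45154152, + strand, GRCm38) lie side by side, with gene starts 20.6 kb apart, and have unlike class patterns. Their promoter windows are placed on RefSeq starts, which differ from these gene starts. Most of the Scn4b window and part of the Scn2b window lie after the gene start given here. The RefSeq windows (GRCm38.p6, 250 bases before to 50 after a start) are chr9:45138374-45138673 for Scn4b and chr9:45117626-45117925 for Scn2b, both on the + strand, with each CG pair in capitals.
Scn4b promoter: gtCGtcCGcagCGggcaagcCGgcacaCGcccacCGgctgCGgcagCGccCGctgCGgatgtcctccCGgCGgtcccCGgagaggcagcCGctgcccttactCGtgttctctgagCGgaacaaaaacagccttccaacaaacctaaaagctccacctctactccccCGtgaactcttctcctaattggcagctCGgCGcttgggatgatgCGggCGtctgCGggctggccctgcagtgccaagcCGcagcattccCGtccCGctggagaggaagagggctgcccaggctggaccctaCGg
Scn2b promoter: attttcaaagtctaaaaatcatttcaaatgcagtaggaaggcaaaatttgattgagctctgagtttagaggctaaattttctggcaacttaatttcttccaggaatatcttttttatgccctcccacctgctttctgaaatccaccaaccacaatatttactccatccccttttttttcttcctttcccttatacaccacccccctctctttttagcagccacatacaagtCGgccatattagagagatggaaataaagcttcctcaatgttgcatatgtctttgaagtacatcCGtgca
The Scn4b window held 26 CG pairs and 66.3% G and C bases, and 83.1% of 32851 RefSeq windows of this length held fewer CG pairs. The Scn2b window held 2 CG pairs and 38.3% G and C bases, and 14.1% of windows held fewer. The median over all windows was 7 CG pairs, and over the 41 windows of the 30 members that matched the table it was 9. Neither window held the Sp1 box GGGCGG, the TATA box TATAAA, the E-box CAGCTG or the cAMP response element TGACGTCA on either strand. Over the members' 41 windows, 39.0% held GGGCGG (35.7% of all windows), 4.88% TATAAA (13.6% of all), 31.7% CAGCTG (16.3% of all) and 0% TGACGTCA (1.79% of all).

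The calcium channel pore subunits also divided the neurons between them. Cacna1a, the P/Q-type pore that drives transmitter release at most central synapses, was highest in mature granule neurons, at 3910.3 and 4171 CPM in KO and 4232 and 3519.9 CPM in WT. Immature granule neurons followed with 2368 to 2888 CPM, below all 4 values of the mature ones. Cacna1e, the R-type pore, was highest in the same 2 classes, with 1719.6 to 1921 CPM in mature and 1582 to 1656 CPM in immature granule neurons. Cacna1b, the N-type pore of presynaptic terminals, was highest in the Purkinje class (377 to 575 CPM), with GABAergic interneurons (342 to 442 CPM) overlapping.

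The 2 L-type pores of the brain, which couple dendritic activity to gene expression, peaked in different inhibitory classes. Cacna1c was highest in immature GABAergic neurons, at 3479 and 2815 CPM in KO and 3491 and 2822 CPM in WT, and Purkinje neurons had 2327 to 2939 CPM. Cacna1d was highest in cerebellar interneurons, at 1668 and 1730.5 CPM in KO and 1890.1 and 2031 CPM in WT. Every library of the next class, immature GABAergic neurons (1014 to 1085 CPM), lay below that.

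The 3 T-type pores, low-threshold channels that support burst firing, peaked in 2 classes. Cacna1g was highest in the Purkinje class, which may be mostly other neurons (276 to 482 CPM), and lowest among the neuron classes in spiny neurons (6.34 to 20.6 CPM). Cacna1i had the opposite arrangement, with 186 to 203 CPM in spiny neurons, its highest class, and 0 to 73.1 CPM in Purkinje neurons. Cacna1h had 41.5 to 65.6 CPM in spiny neurons, 25.3 to 55.9 CPM in cortical excitatory neurons and 0 to 6.14 CPM in mature granule neurons.

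Of the α2δ subunits, extracellular proteins that bring the pore to the membrane and to synapses, Cacna2d3 was highest in striatal spiny neurons. It stood there at 3657 and 3739 CPM in KO and 4012 and 4093 CPM in WT. Cerebellar interneurons followed at 2524 and 2875 CPM in KO and 2961 and 3211 CPM in WT, below all 4 spiny neuron values. In immature GABAergic neurons it was at 235 to 391 CPM. Within cortical excitatory neurons it differed between the 2 clusters of the class, with 896 to 1119 CPM in the larger one, where Cux2 was among the detected markers, and 165 to 286 CPM in the smaller one, where Foxp2, Tle4 and Hs3st4 were. The smaller cluster made up 19.1% and 20.9% of the class in KO and 18.9% and 19.5% in WT. Cacna2d1, a binding site of gabapentin, was highest in immature granule neurons (1459 to 1763 CPM) and low in cerebellar interneurons (120.1 to 242 CPM). Cacna2d2, whose loss causes ataxia and seizures in the ducky mouse, was highest in GABAergic interneurons (148 to 290.1 CPM), Purkinje neurons (71.0 to 431 CPM) and the unnamed cluster (145 to 221 CPM), which overlapped. It was at 11.7 to 17.4 CPM in cortical excitatory neurons.

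The cytoplasmic β subunits, which release the pore from intracellular retention and set its gating, had 2 strongly measured members. Cacnb2 was highest in striatal spiny neurons, at 1030.0 and 1305 CPM in KO and 1249 and 1482 CPM in WT, above every library of the other 16 classes. Cacnb4, mutated in the lethargic mouse, was highest in mature granule neurons (1335 to 1447 CPM) and lower in immature granule neurons (1027 to 1184 CPM). Cacnb3 averaged 25.4 CPM in its highest class, immature GABAergic neurons, and Cacnb1 31.1 CPM in spiny neurons.

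The 6 TARP genes divided between neurons and glia. Cacng2, or stargazin, named from the ataxic stargazer mouse, was highest in cerebellar interneurons, at 636 and 607 CPM in KO and 625 and 675 CPM in WT. The next class, GABAergic interneurons, had 161 to 237 CPM. Cacng3 was highest in the forebrain classes, with 144 to 189 CPM in cortical excitatory and 134 to 209 CPM in spiny neurons, against 10.4 to 19.2 CPM in mature granule neurons. Cacng4 was highest in OPCs, at 851 and 823 CPM in KO and 1098 and 915 CPM in WT. The next class, spiny neurons, had 209 to 228 CPM, and committed oligodendrocyte precursors had 119.9 to 137 CPM. Mature oligodendrocytes had 0 to 24.0 CPM of Cacng4.

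Cacng5, Cacng7 and Cacng8 were highest in Bergmann-type astroglia, the radial glia of the cerebellum that express AMPA receptors. That class has only 124 nuclei. Cacng5 had 91.9 to 150.4 CPM there, Cacng7 171 to 239 CPM and Cacng8 85.8 to 219 CPM. Both Cacng5 and Cacng8 overlapped the next class, immature GABAergic neurons. With marked doublets kept, the class changed in make-up and averaged 27.1 CPM of Cacng5 and 81.4 CPM of Cacng7. Without a mitochondrial maximum Cacng5 averaged 66.0 CPM and Cacng7 118 CPM, and at a Leiden resolution of 2 they averaged 75.6 and 139 CPM.

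**Figure D2:**
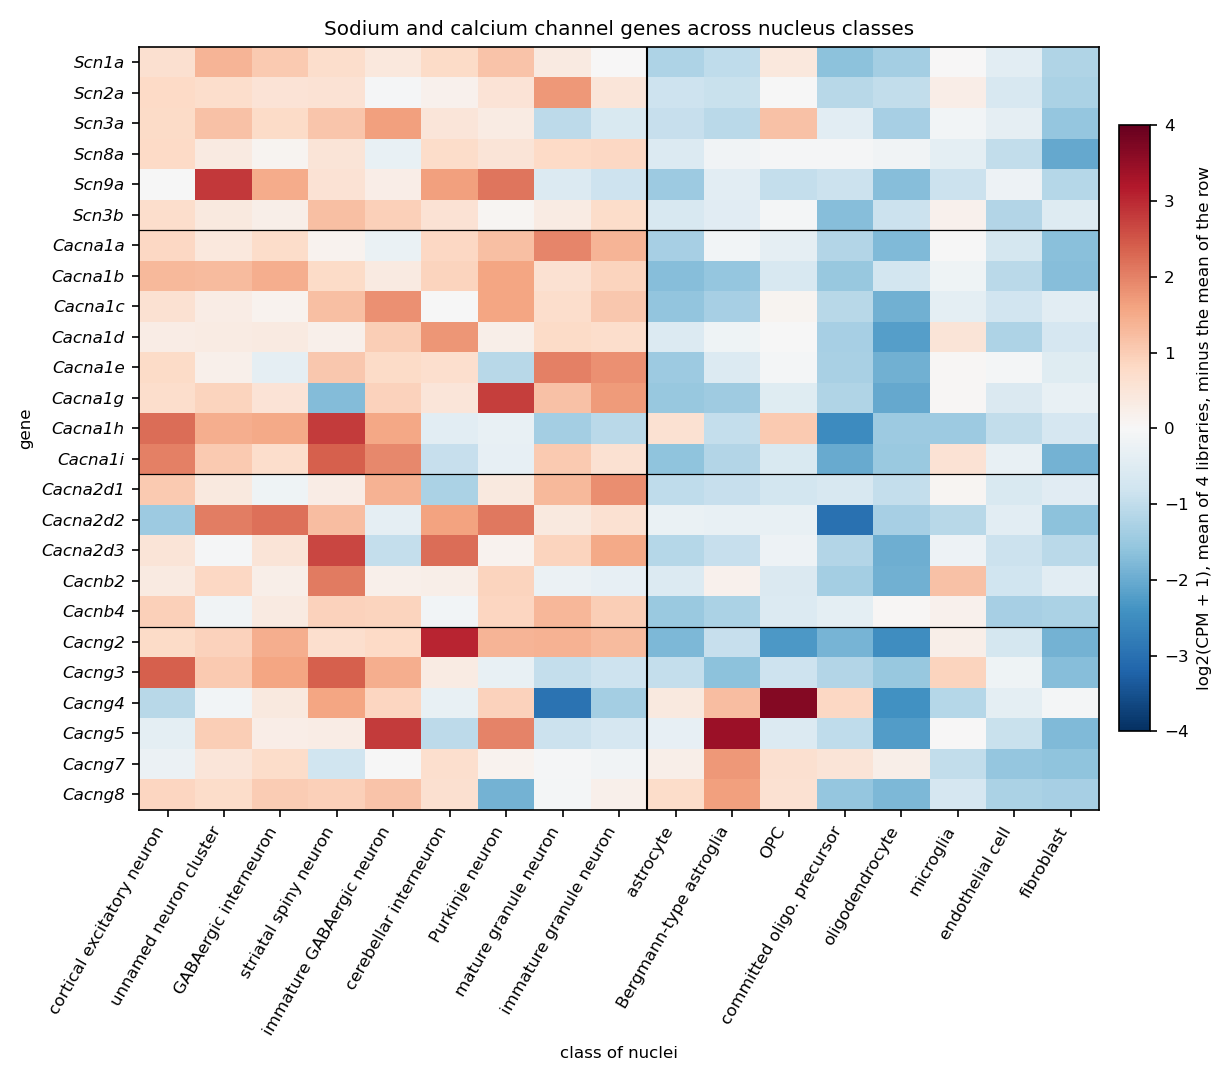
Levels of the 25 members that averaged at least 50 CPM in a class (rows; sodium channels, calcium channel pores, α2δ and β subunits, TARPs) in 17 classes (columns; neurons left of the line). Colour is log2(CPM + 1), averaged over 4 libraries, minus the mean of the row; Cacng4 in OPCs and Cacng5 in Bergmann-type astroglia are the strongest cells of the TARP rows outside neurons.

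The remaining members were rare in this tissue. Scn4a, the skeletal muscle sodium channel, had 8 UMIs over all kept nuclei, and Cacna1s, the skeletal muscle calcium channel, had 14. Scn10a and Scn11a, of sensory neurons, had 14 and 59 UMIs. For these 2 the highest class averages were 1.61 CPM in endothelial cells and 5.16 CPM in mature granule neurons. Cacng1 and Cacng6, γ subunits known from muscle, had 63 and 69 UMIs. Cacna1f, the retinal L-type pore, had 242 UMIs and was highest in immature granule neurons (12.6 to 20.7 CPM). Cacna2d4 had 349 UMIs and was highest in mature oligodendrocytes (22.7 to 47.4 CPM). Scn7a, a sodium sensor that is not voltage-gated, had 261 UMIs, with 2.28 to 24.3 CPM in fibroblasts.

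Outside neurons, the median channel gene lay within the range of other neuronal transcripts in all 8 classes. In droplets, free RNA from neurons also reaches glial barcodes. The level in each non-neuronal class was therefore given as a percentage of the level in all named neuron classes summed, beside 10 pan-neuronal genes such as Rbfox3 and Snap25. In microglia the 10 pan-neuronal genes lay between 39.4% and 59.2%, and the 25 channel genes had a median of 49.8%, at a median of 1403 UMIs per nucleus. In endothelial cells the pan-neuronal genes lay between 15.4% and 43.8%, and the channel median was 30.9%. In astrocytes the medians were 20.1% for the pan-neuronal genes and 28.4% for the channel genes, and in OPCs they were 26.1% and 48.0%.

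Members above the highest pan-neuronal gene of their class numbered 7 of 25 in microglia, 5 each in Bergmann-type astroglia and endothelial cells, 3 in OPCs, 2 each in committed precursors, oligodendrocytes and fibroblasts, and 0 in astrocytes. Cacng4 reached 1539% of the neuron level in OPCs, 212% in committed precursors and 158% in astrocytes. Scn3a reached 150.3% in OPCs, where Map2 was the highest pan-neuronal gene at 125%. Cacng5 reached 738% in Bergmann-type astroglia. Cacng7 reached 124% in oligodendrocytes, against at most 52.2% for the pan-neuronal genes. In microglia Cacnb2 reached 161% and Cacna1d 93.9%, against at most 59.2%, and Cacng5, Scn1a, Scn2a, Scn3a and Scn3b also lay above that value. In endothelial cells Cacna2d2, Cacng4, Scn1a, Scn3a and Scn9a lay above the pan-neuronal maximum of 43.8%, with Cacng4 highest at 91.1%. The neuron level leaves out the unnamed cluster, the highest class of Scn1a and Scn9a and among the highest of Cacna2d2. The percentages of these genes, also of Scn1a in microglia, are therefore higher than with that cluster included. In fibroblasts Cacng4 reached 114% and Cacnb2 53.2%, against at most 43.9%. In astrocytes Cacng4, Cacng7 and Cacng8 all exceeded 100%, but none exceeded the highest pan-neuronal value there.

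**Figure D3:**
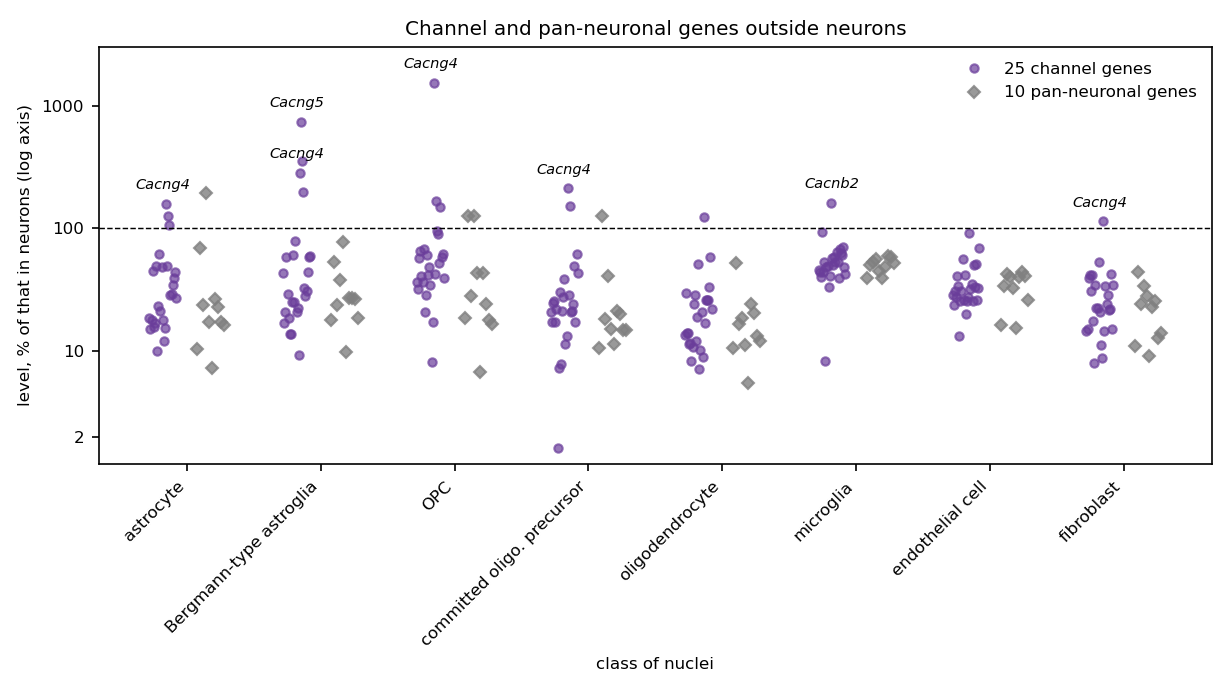
Level in 8 non-neuronal classes as a percentage of the level in all named neuron classes summed (vertical log axis), for 25 channel genes (circles) and 10 pan-neuronal genes (diamonds); each point is 1 gene, averaged over 4 libraries. In microglia the 10 pan-neuronal genes lie between 39.4% and 59.2% and Cacnb2 lies at 161%; in OPCs Cacng4 lies at 1539%.

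The mural, choroid plexus, ependymal and border macrophage classes were too small to compare libraries and were pooled over all 4, so they have no replicate check. Among 81 mural nuclei, the pericytes and smooth muscle cells of vessels, Cacna1c, the L-type pore that drives contraction of smooth muscle, stood at 2912 CPM (637 UMIs, exact 95% Poisson interval 2690.0 to 3147 CPM). That is near the 2815 to 3491 CPM of immature GABAergic neurons, and endothelial cells had 214 to 831 CPM. Cacnb2 stood at 1266 CPM (277 UMIs, exact 95% Poisson interval 1121 to 1424 CPM) in mural nuclei. Among 62 choroid plexus nuclei Cacnb4 stood at 909 CPM (430 UMIs, exact 95% Poisson interval 825 to 999 CPM). These intervals cover counting error only.

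The genotype comparison asked whether the loss of Ago2 from Slc17a6-lineage neurons changes the channel genes in any class. No channel gene passed the threshold. The edgeR quasi-likelihood test, adjusted over all genes of a class, called 0 of 350 pairs of channel gene and class, against 40 of 103437 pairs (0.0387%) over all genes, and DESeq2 also called 0 channel genes in every class. At an unadjusted p under 0.05, edgeR had 26 of the 350 pairs (7.43%), against 5.38% over all genes. The classes share the 4 libraries, so these pairs are not independent. Of the 40 members, 34 passed the filter on low counts in at least 1 class, 9 in all 17, and 6 in none: Scn4a, Scn10a, Scn11a, Cacna1s, Cacng1 and Cacng6. For a single gene, an exact two-sided permutation test of 2 KO against 2 WT libraries cannot give a p below 0.333.

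In the sum of all 8 named neuron classes, 35 members were tested, and 0 passed the threshold by edgeR or DESeq2 (over all genes 0.0% called by edgeR). Of the 35, 6 had an unadjusted edgeR p under 0.05 (5.4% over all genes), and 22 had a positive and 13 a negative log2 difference. The main pores lay near 0 with small errors: Cacna1a had a log2 difference of -0.03 (SE 0.11), Cacna1c 0.12 (SE 0.11), Scn2a 0.04 (SE 0.11) and Scn8a -0.11 (SE 0.10). The members farthest from 0 were accessory subunits, among them the TARPs Cacng4 and Cacng5 on the positive side and the sodium channel β subunit Scn2b on the negative side. The sum of all kept nuclei, which does not depend on clustering, gave 0 of 37 members past the threshold by edgeR and DESeq2 (0.0% over all genes) and 4 at an unadjusted p under 0.05 (5.87% over all genes).

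**Figure D4:**
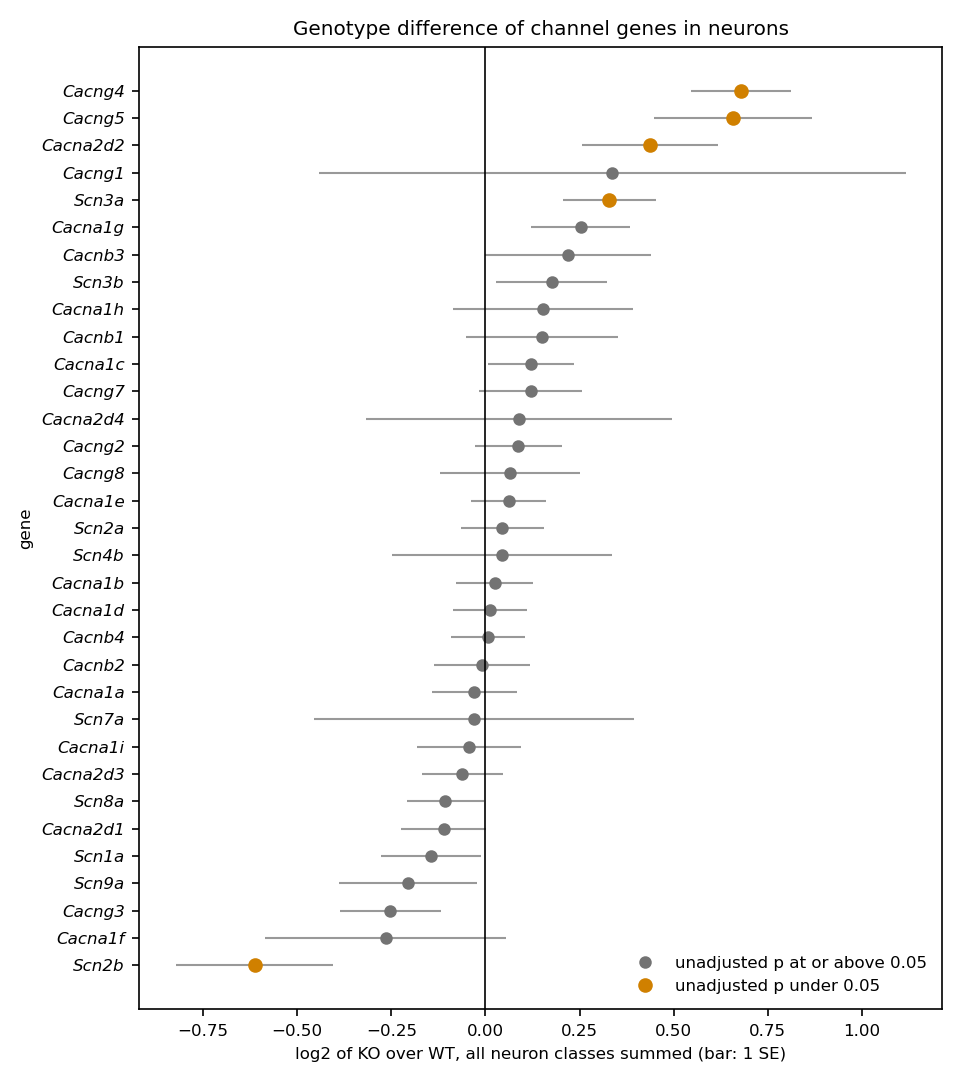
Log2 of KO over WT for 33 of the 35 members tested in the sum of all named neuron classes (horizontal axis; bars are 1 SE from the edgeR fit), ordered by value (vertical axis). Cacng4 (0.68) and Cacng5 (0.66) lie at the top, Scn2b (-0.61) lies at the bottom, and none passed the adjusted threshold.

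Cacng4, which among the TARPs is enriched in immature cells and glia, had the smallest p of any member. In cortical excitatory neurons it stood at 51.1 and 39.3 CPM in KO and 20.5 and 20.5 CPM in WT. Both KO libraries lay above both WT libraries, but the difference did not pass the adjustment (log2 difference 1.08, SE 0.23, edgeR adjusted p = 0.261). In GABAergic interneurons it stood at 119.7 and 161 CPM in KO and 56.2 and 38.4 CPM in WT, again without overlap (log2 difference 1.60, SE 0.37, edgeR adjusted p = 0.706), from 34 to 148 nuclei per library. In immature granule neurons it stood at 34.9 and 38.4 CPM in KO and 14.5 and 20.7 CPM in WT (log2 difference 0.96, SE 0.41, edgeR adjusted p = 0.751). Over the named neuron classes summed, without the unnamed cluster, it averaged 73.8 ± 1.11 CPM in KO and 45.9 ± 5.13 CPM in WT (SD, n = 2 libraries each, log2 difference 0.68, SE 0.13, edgeR adjusted p = 0.577). In the unnamed cluster the 6 TARPs, Cacng4 among them, had log2 differences between -0.21 and 0.34. Of these, 0 had an unadjusted edgeR p under 0.05.

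Within the cortical excitatory class, the larger cluster had 53.2 and 36.9 CPM in KO and 21.1 and 21.1 CPM in WT, and the smaller one 41.9 and 48.5 CPM in KO and 18.1 and 18.02 CPM in WT, so KO lay above WT in both. With 1 library left out in turn, the log2 difference of Cacng4 lay between 0.59 and 0.76 in the neuron sum. In GABAergic interneurons it lay between 1.26 and 1.84. Such a fit leaves 1 library in a group, so the spread within that group is not measured.

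The direction of Cacng4 was not shared by every class. In OPCs, where its level was highest, it stood at 851 and 823 CPM in KO and 1098 and 915 CPM in WT (log2 difference -0.27, SE 0.14, edgeR adjusted p = 0.888), and KO lay below WT. In fibroblasts it stood at 27.9 and 46.0 CPM in KO and 119.6 and 80.0 CPM in WT, with KO again below WT (log2 difference -1.34, SE 0.39, edgeR adjusted p = 0.655). Of the 2 astrocyte clusters, one had 94.8 and 69.9 CPM in KO and 44.8 and 52.5 CPM in WT and the other 80.2 and 124 CPM in KO and 140.1 and 172 CPM in WT, with KO above WT in the first and below it in the second. Over the 14 classes tested, 7 had a positive and 7 a negative log2 difference.

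Because OPCs carry so much Cacng4, OPC markers were read in the same nuclei. In cortical excitatory neurons all 10 OPC markers had UMIs, and their summed level was 833 and 863 CPM in KO and 694 and 735 CPM in WT. In GABAergic interneurons all 10 had UMIs, at 944 and 988 CPM in KO and 972 and 921 CPM in WT. In fibroblasts 9 of 10 had UMIs, with Olig2 at 0, and the sum was 638 and 619 CPM in KO and 743 and 759 CPM in WT. The part of OPC RNA in the Cacng4 differences was not tested. The difference in genotype effect between cortical excitatory neurons and the 3 GABAergic classes summed was tested as an interaction: 0 of 32 channel genes passed (0.163% over all genes), 4 had an unadjusted p under 0.05 (6.27% over all genes), DESeq2 also called 0, and Cacng4 had the smallest p (log2 difference of effects 0.66, SE 0.23, edgeR adjusted p = 0.365).

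**Figure D5:**
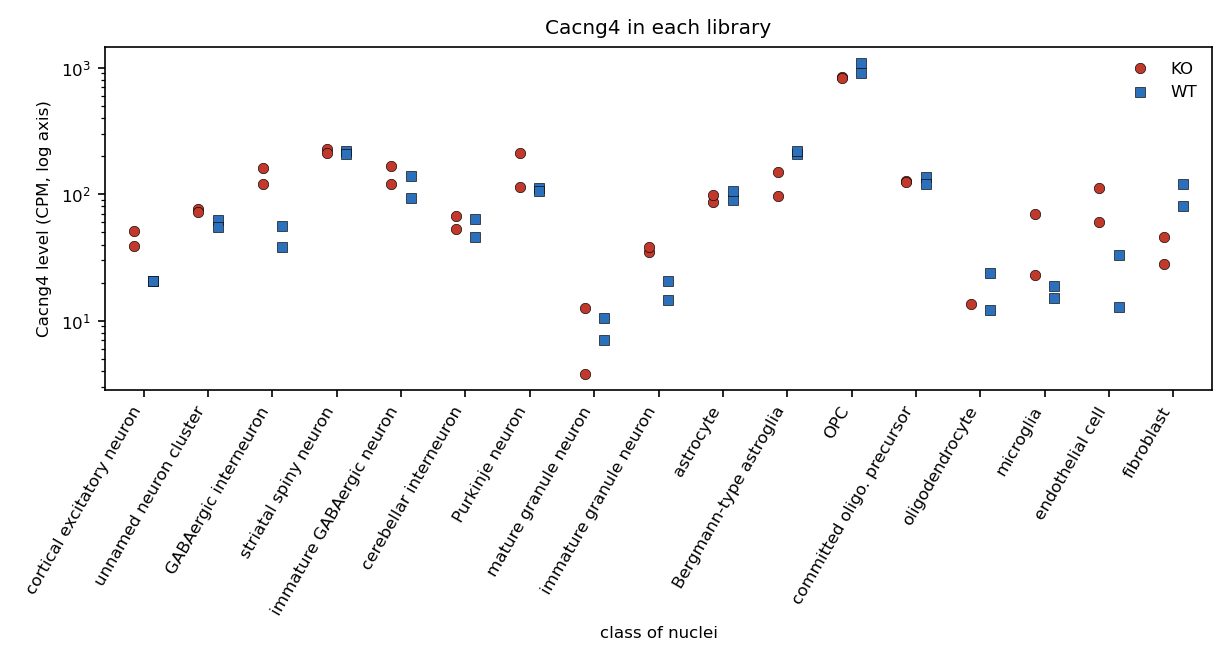
Cacng4 level (vertical log axis, CPM of the class) in 17 classes (horizontal axis); each point is 1 library, KO as circles and WT as squares. In cortical excitatory neurons the KO libraries sit at 51.1 and 39.3 CPM and the WT libraries at 20.5 and 20.5 CPM, and in fibroblasts KO sits at 27.9 and 46.0 CPM below WT at 119.6 and 80.0 CPM.

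Scn2b, a disulfide-linked β subunit, was lower in KO in each class where it was tested, without passing the threshold. It stood at 22.5 and 30.2 CPM in KO and 41.2 and 47.0 CPM in WT in mature granule neurons (log2 difference -0.77, SE 0.25, edgeR adjusted p = 0.629). In the unnamed cluster it stood at 21.4 and 25.3 CPM in KO and 32.2 and 36.6 CPM in WT (log2 difference -0.58, SE 0.22, edgeR adjusted p = 1). All 4 classes tested for Scn2b had both KO libraries below both WT libraries, an arrangement found in 15.9% of pairs over all genes. In the neuron sum, other β subunits had log2 differences of 0.18 for Scn3b (SE 0.15) and 0.04 for Scn4b (SE 0.29). Without KO replicate 2, Scn2b passed the edgeR threshold in the neuron sum (-0.81, adjusted p = 0.0328) and in mature granule neurons (adjusted p = 0.0411).

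Scn3a tended the other way. In the unnamed cluster it stood at 212 and 208 CPM in KO and 151 and 171 CPM in WT (log2 difference 0.37, SE 0.13, edgeR adjusted p = 1), and in cortical excitatory neurons at 174 and 145 CPM in KO and 122 and 121 CPM in WT (log2 difference 0.34, SE 0.15, edgeR adjusted p = 0.922). Both groups were separated with KO on top in 7 of the 15 classes tested for Scn3a, an arrangement found in 18.4% of pairs over all genes, and 11 of the 15 log2 differences were positive. Its partner in the ratio above, Scn8a, had a log2 difference of -0.11 in the neuron sum. The ratio of Scn8a to Scn3a in cortical excitatory neurons was 2.70 and 3.25 in KO and 3.89 and 4.197 in WT, and in the unnamed cluster 1.65 and 1.56 in KO and 2.49 and 2.22 in WT. In immature granule neurons it was 8.42 and 7.30 in KO and 13 and 10.5 in WT. KO lay below WT in these 3 classes, and also in GABAergic interneurons, striatal spiny neurons and cerebellar interneurons. The groups overlapped in Purkinje neurons, in immature GABAergic neurons (0.910 and 0.868 in KO and 0.854 and 0.915 in WT) and in mature granule neurons (9.35 and 19.1 in KO and 14.9 and 10.4 in WT). The ratio was chosen after its values were seen, and no test was made of it. The classes share the 4 libraries, and how often other ratios of genes separate in this way was not counted.

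Cacna2d2 had a positive log2 difference in 9 of the 11 classes tested. In striatal spiny neurons it stood at 146 and 116 CPM in KO and 84.8 and 72.4 CPM in WT (log2 difference 0.70, SE 0.22, edgeR adjusted p = 0.661), and in immature GABAergic neurons at 48.8 and 39.1 CPM in KO and 29.1 and 19.6 CPM in WT (log2 difference 0.89, SE 0.34, edgeR adjusted p = 1). Over all nuclei it averaged 94.2 ± 14.9 CPM in KO and 63.3 ± 7.96 CPM in WT (SD, n = 2 libraries each, log2 difference 0.55, SE 0.14, edgeR adjusted p = 0.431). The unnamed cluster, one of its 3 highest classes, also held a larger share of KO nuclei, and the part of that share in the sum was not tested. In Purkinje neurons 1 library set the value: Cacna2d2 stood at 431 and 71.0 CPM in KO and 154 and 111 CPM in WT, from 20 to 43 nuclei per library, and the log2 difference of 0.91 became -0.90 without KO replicate 1. At a Leiden resolution of 0.5 the Purkinje class held 6 and 0 nuclei in KO and 3 and 6 in WT. Without KO replicate 2 the log2 difference of Cacna2d2 was 1.67 in Purkinje neurons, 0.65 in the neuron sum and 0.70 in all nuclei. Each of those fits has 1 KO library, so the spread within KO is not measured.

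Other members leaned one way over many classes with small differences in each. Cacna1b had a positive log2 difference in 14 of 15 classes tested, with a median of 0.21, and both KO libraries lay above both WT libraries in 7. In the neuron sum it stood at 313 and 297 CPM in KO and 307 and 287 CPM in WT (log2 difference 0.03, SE 0.10), so the groups overlapped there. Scn1a was negative in 13 of 16 classes (median -0.10) and Cacna2d3 in 12 of 17 (median -0.10), with both KO libraries below both WT libraries in 7 and 8 classes. In the neuron sum Scn1a stood at 205 and 175 CPM in KO and 189 and 225 CPM in WT (log2 difference -0.14, SE 0.13, edgeR adjusted p = 0.986) and Cacna2d3 at 1199 and 1331 CPM in KO and 1324 and 1293 CPM in WT (log2 difference -0.06, SE 0.11, edgeR adjusted p = 0.995). Over all members, KO lay above WT in 75 of 350 pairs of gene and class (21.4%, against 18.4% over all genes) and below WT in 61 (17.4%, against 15.9%).

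Single classes held further members with an unadjusted edgeR p under 0.05, none past the adjusted threshold. In cerebellar interneurons there were 4 of 21 (5.14% over all genes). Cacnb2 stood there at 302 and 258 CPM in KO and 459 and 387 CPM in WT (log2 difference -0.64, SE 0.21, edgeR adjusted p = 0.749) and Cacna2d1 at 225 and 242 CPM in KO and 120.1 and 150.4 CPM in WT (log2 difference 0.72, SE 0.24, edgeR adjusted p = 0.749). Cacna1c (0.42) and Cacnb4 (0.42) were the others. Cortical excitatory neurons had 5 of 29 (5.39% over all genes), among them, besides Cacng4 and Scn3a, Cacna2d3 (-0.30) and Scn9a (-0.60). Immature granule neurons had 3 of 21 (6.05% over all genes): Cacna2d2, Cacng4 and Cacna1g, the last at 178 and 200.2 CPM in KO and 141 and 139 CPM in WT. In Purkinje neurons (0 of 19, 2.85% over all genes), Cacnb2 came first at 439 and 455 CPM in KO and 675 and 615 CPM in WT (log2 difference -0.57, SE 0.28, edgeR adjusted p = 1).

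In 6 of the 8 non-neuronal classes, the median log2 difference of the channel genes had the sign of the pan-neuronal median. In endothelial cells 10 of 11 tested members were negative (median -0.55), beside 9 of 10 pan-neuronal genes (median -0.70). In Bergmann-type astroglia 8 of 11 members were negative (median -0.43), beside 7 of 9 pan-neuronal genes (median -0.27). In committed oligodendrocyte precursors 13 of 15 members were negative (median -0.20), beside 8 of 10 pan-neuronal genes (median -0.27). The channel and pan-neuronal medians were -0.12 and -0.10 in oligodendrocytes, 0.10 and 0.08 in astrocytes, and -0.01 and -0.02 in OPCs. The signs differed in fibroblasts (-0.04 and 0.03) and in microglia, with 11 of 15 members positive (median 0.22) beside 4 of 10 pan-neuronal genes (median -0.01). The medians over all genes tested lay between -0.02 in endothelial cells and 0.01 in fibroblasts. Of the pan-neuronal genes, Rbfox3, a marker of neuronal nuclei, passed the threshold in Bergmann-type astroglia, at 25.1 and 24.3 CPM in KO and 268 and 288 CPM in WT (log2 difference -3.47, SE 0.77, edgeR adjusted p = 0.00324). The KO libraries of that class held only 39904 and 41101 UMIs from 20 and 25 nuclei, so these KO values of Rbfox3 lie near the floor. The part of neuronal RNA in the glial differences was not tested.

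Among astrocytes Cacna1i stood at 15.8 and 19.7 CPM in KO and 4.77 and 4.08 CPM in WT (log2 difference 1.97, SE 0.51, edgeR adjusted p = 0.306), far below its 186 to 203 CPM in spiny neurons. The summed level of 12 spiny neuron markers in the same nuclei was 353 and 309 CPM in KO and 262 and 328 CPM in WT, and of 12 GABAergic interneuron markers 2079.9 and 2012 CPM in KO and 1789 and 1843 CPM in WT, each marker with UMIs, and their part was not tested. With marked doublets kept, the log2 difference of Cacna1i was -0.16, but the class also changed in make-up. It then held 802 nuclei instead of 1346, while Bergmann-type astroglia held 799 instead of 124. In mature oligodendrocytes Cacna2d3 stood at 114 and 113 CPM in KO and 172 and 224 CPM in WT (log2 difference -0.88, SE 0.26, edgeR adjusted p = 0.691) and Scn1a at 37.9 and 22.7 CPM in KO and 82.4 and 63.8 CPM in WT (log2 difference -1.28, SE 0.42, edgeR adjusted p = 0.691).

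No partner gene passed the threshold. The 23 partners of the axon initial segment and sodium channels, 29 of calcium channels and 14 AMPA receptor genes each had 0 members past the edgeR threshold in every class and in both sums. In the neuron sum their median log2 differences were -0.03 over 19 tested, -0.01 over 24 and -0.02 over 14, against -0.01 over all genes tested. Of the calcium channel partners 3 had an unadjusted p under 0.05 there, led by Ncald, a neuronal calcium sensor, at 405 and 402 CPM in KO and 318 and 324 CPM in WT, and Stx1a, a SNARE protein of the presynaptic membrane that binds calcium channels, at 65.0 and 54.2 CPM in KO and 86.4 and 72.1 CPM in WT. Among the sodium channel partners there was 1, and among the AMPA receptor genes there was 1, Cpt1c, at 68.5 and 71.4 CPM in KO and 94.0 and 81.8 CPM in WT. The next AMPA receptor gene by p was Gria1, a receptor subunit, at 1177 and 1015 CPM in KO and 940.4 and 935 CPM in WT over the neurons. Smaller unadjusted p-values stood in single classes. Stac, an adaptor of L-type calcium channels, stood at 130.4 and 106 CPM in KO and 64.3 and 60.5 CPM in WT in the unnamed cluster (log2 difference 0.91, SE 0.16, edgeR adjusted p = 0.828). Ryr1, a calcium release channel of internal stores, stood at 42.3 and 58.8 CPM in KO and 154 and 99.5 CPM in WT in spiny neurons (log2 difference -1.29, SE 0.28, edgeR adjusted p = 0.29). Shisa6, an AMPA receptor auxiliary subunit, stood at 234 and 151 CPM in KO and 60.8 and 84.8 CPM in WT in astrocytes (log2 difference 1.36, SE 0.24, edgeR adjusted p = 0.0917). In each of these 3 the KO and WT libraries did not overlap, but they were picked for the smallest p-values of the partner genes in single classes. Both KO libraries lay above both WT libraries in 18.4% of pairs of gene and class over all genes, and below them in 15.9%.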

How the data were processed

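Single-nucleus RNA was sequenced from 2 KO and 2 WT hemisphere libraries at postnatal day 14. The authors deposited UMI counts per gene and barcode, whole numbers that are not normalised. Per the submitters' processing notes, Cell Ranger 4.0.0 and Seurat 3.2.3 were used with GRCm38, so gene positions refer to that build. The annotation release and whether intronic reads were counted are not given in the sources used here. This affects how strongly gene length weighs on a count.

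From the counts, barcodes with at least 500 UMIs and at most 5% mitochondrial UMIs were kept. Scrublet's automatic threshold marked 3 and 2 KO barcodes and 0 and 0 WT barcodes and so had not worked, and the highest scores were removed at a rate of 0.8% per 1000 barcodes (96 and 95 in KO, 114 and 340 in WT). Nuclei (15431 of 17802 barcodes) were clustered with scanpy 1.11.5 (2000 variable genes without the channel genes, 30 components, 15 neighbours, Leiden resolution 1). Clusters were named from markers when at least 3 were detected. The unnamed neuron cluster of 1609 nuclei was treated as a class of its own and left out of the sum of named neuron classes. In all, 2721 nuclei were in unnamed clusters, that one included, and the rest of these entered the sum of all nuclei alone.

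UMIs were summed per library and class and tested with edgeR 4.0.16 (quasi-likelihood, TMM, filter on low counts, two-sided, Benjamini-Hochberg over all genes of the class at 0.05), with DESeq2 1.42.0 as an alternative in R 4.3.3. The edgeR step was tested on simulated data. SD is over 2 libraries, and SE comes from the edgeR fit. Intervals cover counting error only. Other alternatives were another scaling, no filter, a replicate block, each library left out, doublets kept, no mitochondrial maximum, other Leiden resolutions and channel genes allowed in clustering. A crossed replicate block was added after the data were seen.

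Members with at least 50 CPM in a class, past the threshold, or among the 3 smallest p-values of a class were named with values, and the others by their highest class. Partner genes were to be named when past the threshold or among the 2 smallest p-values of a list; those printed are from the neuron sum, with the 3 of smallest p in single classes. A few members and partner genes are not reported here by name. Members and lists were chosen with earlier results of these data known. Genes in the feature list did not overlap any member on its own strand.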

Additional observations from a re-analysis of the deposited data

Results flagged for a closer look

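Cacng4 lay higher in KO than WT in 3 neuron classes and lower in KO than WT in fibroblasts, with no overlap of libraries in either case. The log2 difference in GABAergic interneurons exceeded that in fibroblasts by 2.94. The log2 difference in cortical excitatory neurons exceeded it by 2.42, and that in immature granule neurons by 2.30. The difference between these classes was not tested, and the pairs were picked because each had an unadjusted edgeR p under 0.05. Over the 14 classes tested for Cacng4, both KO libraries lay above both WT libraries in 5 and below them in 3. Over all genes, 18.4% of pairs of gene and class had KO above WT and 15.9% had KO below. Fibroblasts had 9 of 10 OPC markers with UMIs and 638 and 619 CPM in KO and 743 and 759 CPM in WT of their sum, and the part of that RNA was not tested.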

How the results depend on the processing

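The count of channel genes past the edgeR threshold stayed at 0 in 259 of 270 combinations of a class, a sum or the interaction with an alternative, DESeq2 and DESeq2's scaling among them. Leaving out 1 library in turn gave 0 to 1 in GABAergic interneurons (Cacng4), Purkinje neurons (Cacna2d2), mature granule neurons (Scn2b) and all nuclei (Cacna2d2), 0 to 4 in the neuron sum (without KO replicate 2, Cacng4, Cacna2d2 and Scn2b among them), and 0 elsewhere. With no filter on low counts the count was 1 in cortical excitatory neurons and 1 in the neuron sum, both Cacng4. Without a library, that group has 1 sample, which is assumed to vary like the other group.

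Same-numbered KO and WT libraries deviated together with correlations of -0.18 to 0.54, above 0.1 in 2 and below -0.1 in 3 of the fits, so with 2 pairs the numbers are not shown to pair the libraries. The replicate block gave 0 in every class and sum. A crossed block, added after the data were seen, gave 1 in astrocytes (Cacna1i), 1 in cortical excitatory neurons (Cacng4) and 1 in fibroblasts (Cacng4). Library is already the block of the interaction, so no other was fitted.

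Of 917 log2 differences under an alternative, 899 kept their sign and side of the threshold, 14 passed it and 4 changed sign: Cacna1i in astrocytes (-0.16, doublets kept), and, with 1 library left out in turn, Cacna2d2 in Purkinje neurons (-0.90 without KO replicate 1, to 1.67), Cacna2d3 in endothelial cells (-1.81, to 0.042 without WT replicate 1) and Scn8a in microglia (-0.0011 without KO replicate 2, to 0.70). For the first of these the astrocyte class also changed in make-up, and the cause was not tested. The other 3 rest on fewer libraries. Of 215 class levels, 9 moved beyond 1 SD: Cacng5 and Cacng7 in Bergmann-type astroglia as given above, and, at Leiden resolution 2, Cacna2d1 in immature granule neurons (1816 CPM), Cacng3 in cortical excitatory neurons (126 CPM) and Scn2a in mature granule neurons (666 CPM). Classes under 20 nuclei in a library gave no value: Bergmann-type astroglia with channel genes in the clustering, GABAergic interneurons without a mitochondrial maximum, and Purkinje neurons with doublets kept, without that maximum or at resolution 0.5. Depth limits the small classes most, with 39904 to 163139 UMIs per library in Bergmann-type astroglia against 1663655 to 6770811 in cortical excitatory neurons.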
